A study of Mus musculus with 8 samples.

Results

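The genes examined were 9 transcription factor and cofactor genes known from the last steps of epithelial differentiation, namely Grhl1, Grhl2, Grhl3, Ovol1, Ovol2, Prdm1, Zfp750, Maf and Hopx. They were taken by name from the count table, in which all 9 of 25466 genes were listed, and all 9 were also among the 17006 genes that passed the filter on low counts. The libraries came from medullary thymic epithelial cells (mTECs) of wild-type mice, BL6N6 animals aged 4 to 6 weeks, with no treatment or engineered allele in any group. The cells were sorted by FACS on surface Tspan8, a tetraspanin that only some mTECs carry, and on MHC class II. This gave the subsets Tspan8negMHCIIlo, Tspan8negMHCIIhi, Tspan8posMHCIIhi and Tspan8posMHCIIlo, with 2 libraries each that the labels call biological replicates. Before this sort, live single cells were gated as CD45neg, Epcampos and CDR1neg, a gate meant to remove leukocytes and cortical epithelium. The sources used here do not say how many animals went into a library. MHCIIlo cells are a mixture by design, since both immature mTECs and late mTECs that have lowered MHC class II fall into that gate.

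mTECs display proteins of other tissues to developing T cells, and a part of them goes through a late program that resembles the outer layers of skin. In skin, that program is run by the kind of factors examined here. Grainyhead-like factors (Grhl1 to Grhl3) switch on junction and barrier genes. Ovol1 and Ovol2 are zinc finger repressors that keep cells epithelial and out of the progenitor state. Zfp750 is a zinc finger factor of late keratinocytes, Prdm1 (Blimp-1) is a repressor used by plasma cells and by the granular layer, Maf is a large basic leucine zipper factor used by keratinocytes and by several leukocytes, and Hopx is a small homeodomain protein that does not bind DNA.

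Of the 9 genes, 5 had a promoter in the RefSeq table used here (GRCm38.p6, 250 bases before to 50 bases from each start site). Grhl2, Ovol1, Zfp750 and Maf had no entry. The promoters of 4 genes that were higher in Tspan8pos cells are shown, 5′ to 3′ along the gene, because each was higher there at both MHCII levels. For Grhl1 and Hopx, which have 2 entries each, the window at the outermost start is shown. Capitals mark matches, on either strand, to any of the short motifs searched, which were AACCGGTT and the looser AACNNGTT for Grainyhead-like factors, CCGTTA for Ovol, TGCTGA for Maf, AAAGTGAA for Prdm1, TGANTCA for AP-1, GGAAGT for Ets factors and GGGTG for Klf factors. Every AACCGGTT match is also a match to AACNNGTT.
Grhl1 (chr12:24572037-24572336, plus strand): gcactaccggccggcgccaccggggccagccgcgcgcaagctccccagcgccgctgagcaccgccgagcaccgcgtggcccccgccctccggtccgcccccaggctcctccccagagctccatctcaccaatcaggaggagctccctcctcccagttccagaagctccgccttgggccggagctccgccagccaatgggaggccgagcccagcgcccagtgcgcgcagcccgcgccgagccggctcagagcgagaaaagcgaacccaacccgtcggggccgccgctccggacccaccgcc
Grhl3 (chr4:135573583-135573882, minus strand): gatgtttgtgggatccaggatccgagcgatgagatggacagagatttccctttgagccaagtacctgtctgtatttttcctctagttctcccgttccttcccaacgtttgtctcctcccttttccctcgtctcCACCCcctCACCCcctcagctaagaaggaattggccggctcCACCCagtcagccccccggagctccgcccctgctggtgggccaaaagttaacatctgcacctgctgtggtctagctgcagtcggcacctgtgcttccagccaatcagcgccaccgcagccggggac
Prdm1 (chr10:44458699-44458998, minus strand): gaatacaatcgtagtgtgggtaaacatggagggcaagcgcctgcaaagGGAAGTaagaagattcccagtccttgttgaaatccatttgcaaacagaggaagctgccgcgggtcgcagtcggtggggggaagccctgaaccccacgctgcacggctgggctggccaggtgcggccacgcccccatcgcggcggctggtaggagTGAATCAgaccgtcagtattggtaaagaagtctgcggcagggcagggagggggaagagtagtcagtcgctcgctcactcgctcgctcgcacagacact
Hopx (chr5:77115074-77115373, minus strand): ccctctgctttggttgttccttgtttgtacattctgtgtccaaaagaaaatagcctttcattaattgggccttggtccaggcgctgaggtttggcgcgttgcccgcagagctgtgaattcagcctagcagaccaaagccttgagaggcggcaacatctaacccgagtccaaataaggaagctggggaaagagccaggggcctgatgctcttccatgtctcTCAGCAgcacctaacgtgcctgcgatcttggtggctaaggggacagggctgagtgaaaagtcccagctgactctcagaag

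The Grhl1 window held none of these letters. The Grhl3 window held 3 matches to the Klf motif, with first bases 117, 109 and 76 bases before the start site, a motif found in 57.5% of all 32851 promoters of this length. The Prdm1 window held 1 Ets match, found in 23.8% of promoters, and 1 AP-1 match 48 bases before the start, found in 7.81%. This Prdm1 start lies inside the annotated gene and not at its outer end. The Hopx window held 1 Maf match 30 bases before the start, found in 19.5% of promoters. The second Hopx window held no match and the second Grhl1 window held 2 Klf matches. The Ovol2 window held 1 Ets match and 2 Klf matches. None of the 7 windows held a Grainyhead-like, Ovol or Prdm1 match, and these motifs were rare among all promoters as well, at 0.146% for AACCGGTT, 4.2% for AACNNGTT, 2.76% for CCGTTA and 1.56% for AAAGTGAA. Such letters describe the sequence and say nothing of binding.

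The libraries held between 1941518 and 7783841 counts, so that 3 counts, the limit below which a level was not read, corresponded to 0.385 to 1.65 CPM (counts per 1000000 of the effective library size). The sort genes followed the labels, with Tspan8 at 3.65 to 14.6 CPM in the 4 Tspan8neg libraries and at 347 to 404 CPM in the 4 Tspan8pos libraries. H2-Ab1, which encodes an MHC class II chain, was at 489 to 2070 CPM in MHCIIlo and at 2430 to 5100 CPM in MHCIIhi libraries, and Tspan8negMHCIIlo kept 1700 and 2070 CPM. All 8 mTEC markers were detected in every library. Markers of other cells were not evenly spread. The 6 thymocyte markers summed to 333 and 924 CPM in Tspan8negMHCIIlo against 48.5 to 182 CPM elsewhere, and the 7 B and plasma cell markers to 580 and 999 CPM against 9.89 to 77 CPM. The 8 macrophage and dendritic cell markers summed to 288 to 445 CPM in MHCIIhi and to 47.7 to 109 CPM in MHCIIlo libraries. The 5 markers of cortical epithelium summed to 1080 and 889 CPM in Tspan8negMHCIIlo and to 437 to 547 CPM elsewhere. Ctsl alone made up 953 and 605 CPM of the sums in Tspan8negMHCIIlo. Prss16 was also highest there (58.7 and 138 CPM), and Psmb11 overlapped between subsets. Ccl25 went the other way, at 27.8 and 73.3 CPM against 207 and 283 CPM in Tspan8negMHCIIhi, and Ly75 was lower than in Tspan8negMHCIIhi too. The 5 endothelial markers summed to 87.6 to 126 CPM in MHCIIlo and 25 to 30 CPM in MHCIIhi libraries. C1qa was at 0 in a Tspan8negMHCIIlo library, Adgre1, Mertk and Itgax in a Tspan8posMHCIIlo library, and Tnfrsf17 in a Tspan8posMHCIIlo library. In bulk libraries such as these, fewer cells of a type and less RNA per cell cannot be told apart.

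**Figure D1:**
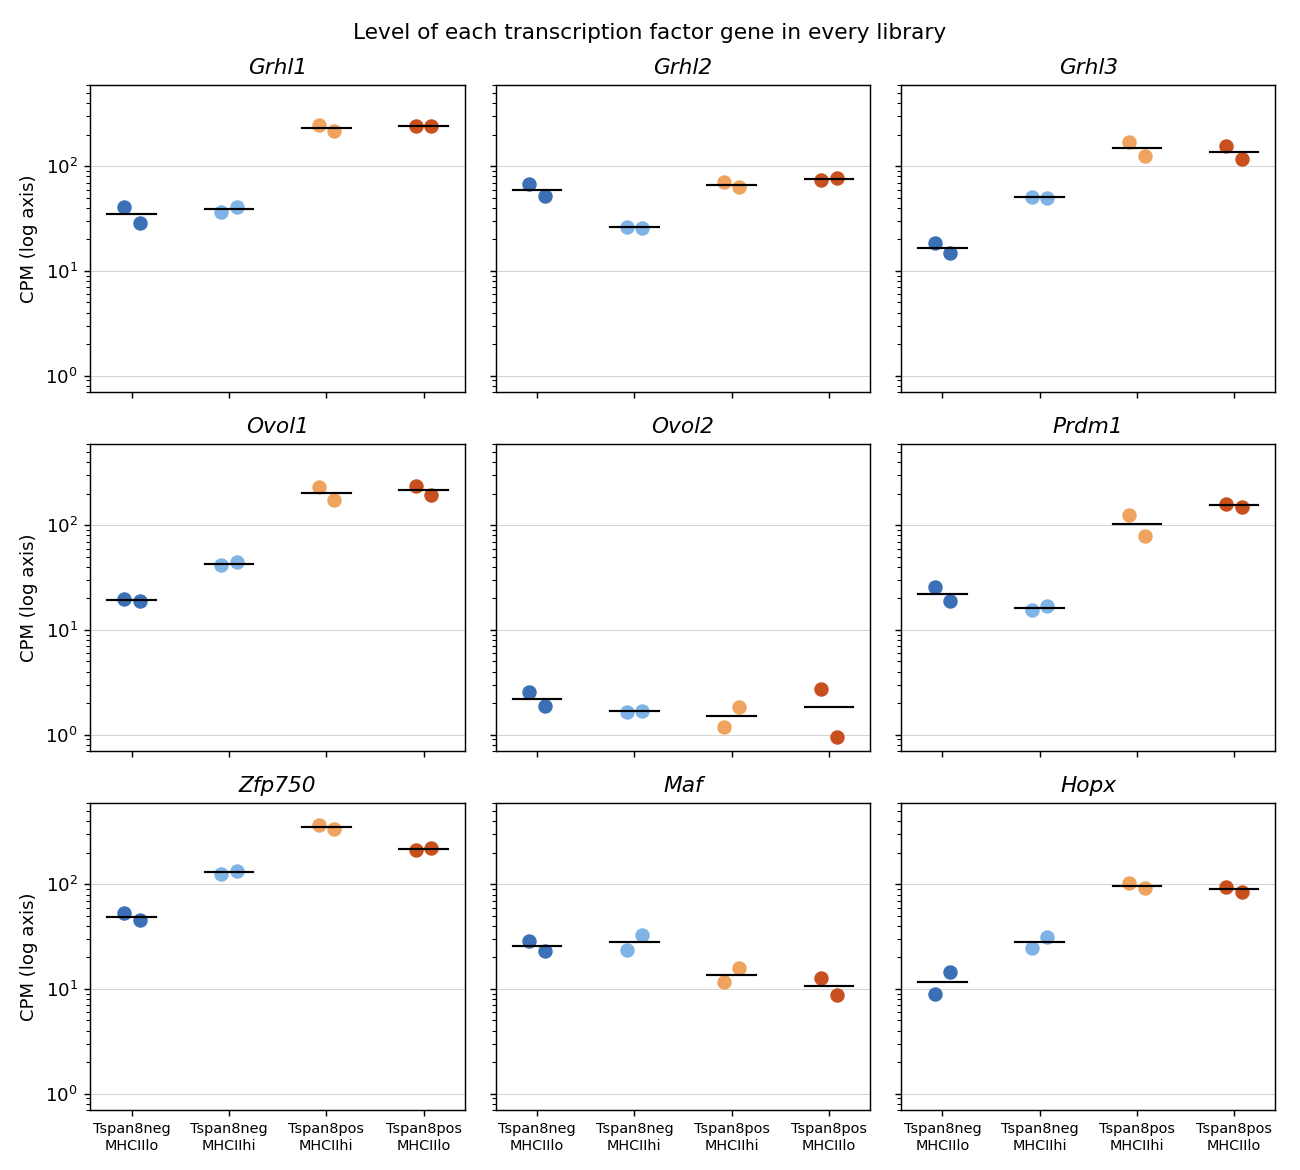
Level of each of the 9 genes in CPM on a log axis, in the 2 libraries (points) of each subset, with the mean as a bar. In 6 of the panels every Tspan8pos point lies above every Tspan8neg point, Maf has the opposite order, Grhl2 is lowest in Tspan8negMHCIIhi, and Ovol2 stays below 3 CPM.

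The main comparison asked which of these genes differed between mTECs with and without the tissue-restricted antigen Tspan8 within the same MHC class II gate. The term MHCII level stands for this gate. H2-Ab1 still differed within a gate, at 2070 and 1700 CPM in Tspan8negMHCIIlo against 518 and 489 CPM in Tspan8posMHCIIlo. Within MHCIIhi it was at 4990 and 5100 CPM in Tspan8neg against 2430 and 2620 CPM in Tspan8pos cells. The part of this MHC class II difference in the results was not tested. A gene was called when the adjusted p of edgeR's quasi-likelihood test, over all genes tested, was under 0.01 and the log2 fold change was at least 1 in size. Within MHCIIlo, 7 of 9 genes were called, where 21.4% of all genes tested were called in either direction. The genes Grhl1, Grhl3, Ovol1, Prdm1, Zfp750 and Hopx rose (12.1% of all genes rose) and Maf fell (9.34% of all genes fell). Within MHCIIhi, 8 of 9 were called against 18.5% of all genes. The same 6 genes and Grhl2 rose (11% of all genes rose), and Maf fell (7.45% of all genes fell). The median log2 fold change of the 9 genes was 2.79 within MHCIIlo and 1.55 within MHCIIhi, against -0.03 and -0.03 over all genes tested. DESeq2 called 7 of the 9 within each MHCII level. Without replicate 2 of Tspan8negMHCIIlo, the library with the highest thymocyte marker sum, the counts were again 7 and 8.

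**Figure D2:**
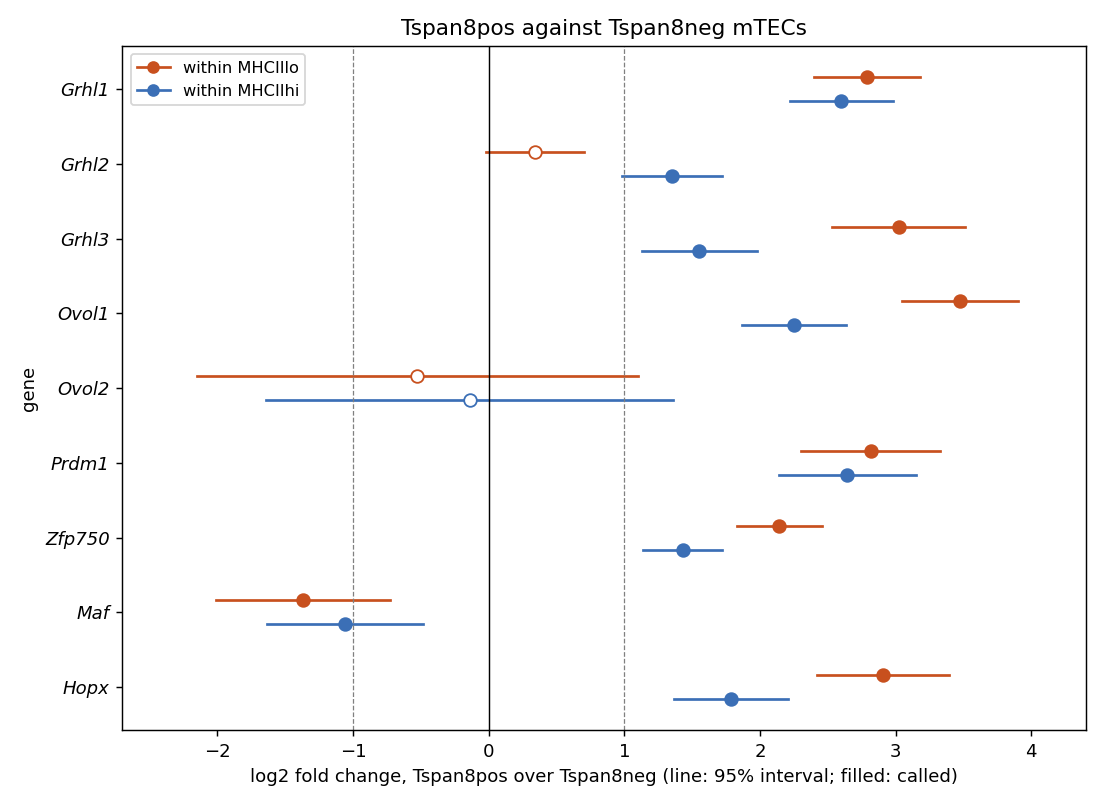
log2 fold change of each gene in Tspan8pos over Tspan8neg cells, with its 95% interval, within MHCIIlo (orange) and within MHCIIhi (blue). Filled points were called and dashed lines mark a log2 fold change of 1 in either direction. The increases of Grhl3, Ovol1 and Hopx lie further to the right within MHCIIlo, while the pairs of points of Grhl1 and Prdm1 nearly coincide.

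Among the Grainyhead-like factors, Grhl1 separated the Tspan8 levels and was not called between MHCII levels. Grhl1 (chr12:24572283-24617391, plus strand, GRCm38) was at 41 and 29 CPM in Tspan8negMHCIIlo, 36.6 and 40.8 CPM in Tspan8negMHCIIhi, 251 and 219 CPM in Tspan8posMHCIIhi and 241 and 241 CPM in Tspan8posMHCIIlo. All 4 Tspan8pos libraries stood far above all 4 Tspan8neg libraries. The fitted increase was 6.91-fold within MHCIIlo (log2 fold change 2.79, SE 0.18, edgeR adjusted p = 7.39e-07) and 6.06-fold within MHCIIhi (2.60, SE 0.17, adjusted p = 1.01e-06). Between MHCII levels the differences were 0.15 in Tspan8neg (95% interval -0.24 to 0.55) and -0.03 in Tspan8pos cells (-0.38 to 0.32), so that neighbours within a Tspan8 level were not separated. The difference between both Tspan8 effects was 0.19 (-0.34 to 0.72).

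Grhl3, the member of the family best known for the skin barrier, followed Tspan8 at both MHCII levels (chr4:135541888-135573630, minus strand). Between MHCII levels Grhl3 was called in Tspan8neg cells alone. Its level was 18.5 and 14.9 CPM in Tspan8negMHCIIlo, 51 and 50.2 CPM in Tspan8negMHCIIhi, 171 and 126 CPM in Tspan8posMHCIIhi and 157 and 117 CPM in Tspan8posMHCIIlo. The Tspan8negMHCIIhi libraries lay between the others, and the Tspan8pos subsets overlapped each other. The increase with Tspan8 was 8.14-fold within MHCIIlo (3.02, SE 0.22, edgeR adjusted p = 1.89e-06) and 2.93-fold within MHCIIhi (1.55, SE 0.19, adjusted p = 9.3e-05).

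Grhl2, the broadly expressed member of the family, had another order (chr15:37233036-37363569, plus strand). It was at 68 and 51.6 CPM in Tspan8negMHCIIlo, 26.4 and 25.9 CPM in Tspan8negMHCIIhi, 70.5 and 63 CPM in Tspan8posMHCIIhi and 73.7 and 77.1 CPM in Tspan8posMHCIIlo. The Tspan8negMHCIIhi libraries were the lowest and the libraries of the other subsets lay close together. Grhl2 was 2.55-fold higher in Tspan8pos cells within MHCIIhi (1.35, SE 0.17, edgeR adjusted p = 8.96e-05), whereas its difference within MHCIIlo was 0.34 (95% interval -0.02 to 0.70, adjusted p = 0.119) and was not called.

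Ovol1 had the largest fold change of the 9 genes within MHCIIlo (chr19:5549136-5560646, minus strand). It was at 19.7 and 18.9 CPM in Tspan8negMHCIIlo, 41.6 and 44.2 CPM in Tspan8negMHCIIhi, 235 and 174 CPM in Tspan8posMHCIIhi and 236 and 196 CPM in Tspan8posMHCIIlo. The 4 Tspan8pos libraries overlapped each other and stood above the Tspan8neg libraries, which themselves were ordered by MHC class II. The increase was 11.1-fold within MHCIIlo (3.48, SE 0.19, edgeR adjusted p = 3.14e-07) and 4.76-fold within MHCIIhi (2.25, SE 0.17, adjusted p = 3.05e-06).

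Its relative Ovol2 was near the limit of detection throughout (chr2:144305175-144332146, minus strand). Its counts were between 5 and 13 in every library. This corresponded to 2.53 and 1.89 CPM in Tspan8negMHCIIlo, 1.66 and 1.67 CPM in Tspan8negMHCIIhi, 1.19 and 1.83 CPM in Tspan8posMHCIIhi and 2.75 and 0.956 CPM in Tspan8posMHCIIlo. No order of the subsets could be read from these values. The interval of its Tspan8 difference reached from -2.15 to 1.10 within MHCIIlo and from -1.64 to 1.36 within MHCIIhi, so that a difference of the size seen for Ovol1 lay outside it, while a smaller one was not detectable at this depth.

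Prdm1 followed Tspan8 at both MHCII levels (chr10:44437177-44528501, minus strand). It was at 25.6 and 18.9 CPM in Tspan8negMHCIIlo, 15.6 and 16.9 CPM in Tspan8negMHCIIhi, 125 and 79.6 CPM in Tspan8posMHCIIhi and 161 and 151 CPM in Tspan8posMHCIIlo. It was highest in both Tspan8posMHCIIlo libraries, the Tspan8posMHCIIhi libraries differed most from each other, and the libraries of no pair of subsets overlapped. The increase was 7.04-fold within MHCIIlo (2.82, SE 0.23, edgeR adjusted p = 4.24e-06) and 6.25-fold within MHCIIhi (2.64, SE 0.23, adjusted p = 6.78e-06). Plasma cells also use Prdm1. The summed B and plasma cell markers were highest in Tspan8negMHCIIlo (580 and 999 CPM), where Prdm1 was at 25.6 and 18.9 CPM. They were at 9.89 and 48.3 CPM in Tspan8posMHCIIlo, where Prdm1 was highest. The part of these cells in the Prdm1 levels was not tested.

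Zfp750 was the only one of the 9 with an adjusted p under 0.01 in all 6 pairs of subsets (chr11:121510978-121519333, minus strand). It was at 53.1 and 45.5 CPM in Tspan8negMHCIIlo, 127 and 133 CPM in Tspan8negMHCIIhi, 366 and 336 CPM in Tspan8posMHCIIhi and 211 and 224 CPM in Tspan8posMHCIIlo. It was highest in Tspan8posMHCIIhi, and the libraries of no pair of subsets overlapped. The increase with Tspan8 was 4.42-fold within MHCIIlo (2.14, SE 0.14, edgeR adjusted p = 9.18e-07) and 2.7-fold within MHCIIhi (1.43, SE 0.13, adjusted p = 1.11e-05). The subsets nearest to each other on the log scale were Tspan8posMHCIIhi and Tspan8posMHCIIlo (0.69, SE 0.13, edgeR adjusted p = 0.00439) and Tspan8posMHCIIlo and Tspan8negMHCIIhi (0.74, SE 0.13, adjusted p = 0.000803), both under the fold limit.

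Hopx rose with Tspan8 from a low level (chr5:77086988-77115121, minus strand). It was at 8.99 and 14.4 CPM in Tspan8negMHCIIlo, 24.7 and 31.1 CPM in Tspan8negMHCIIhi, 102 and 92.4 CPM in Tspan8posMHCIIhi and 94 and 84.9 CPM in Tspan8posMHCIIlo. The Tspan8pos subsets overlapped each other, and below them the Tspan8negMHCIIhi libraries stood above the Tspan8negMHCIIlo libraries. The increase was 7.51-fold within MHCIIlo (2.91, SE 0.22, edgeR adjusted p = 2.32e-06) and 3.45-fold within MHCIIhi (1.79, SE 0.19, adjusted p = 3.05e-05).

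Maf was the only gene of the 9 that fell in Tspan8pos cells, from a low level (chr8:115682942-115707794, minus strand). It was at 28.6 and 23.3 CPM in Tspan8negMHCIIlo, 23.7 and 33.1 CPM in Tspan8negMHCIIhi, 11.6 and 15.8 CPM in Tspan8posMHCIIhi and 12.6 and 8.74 CPM in Tspan8posMHCIIlo. Each Tspan8neg library was above each Tspan8pos library, and the MHCII levels overlapped within each Tspan8 level. Maf was 2.58-fold lower within MHCIIlo (-1.37, SE 0.29, edgeR adjusted p = 0.00326) and 2.09-fold lower within MHCIIhi (-1.06, SE 0.26, adjusted p = 0.00822). Both calls rested on few libraries. Within MHCIIlo the call ended without replicate 2 of Tspan8posMHCIIlo (-1.03, adjusted p = 0.0836) and in a fit of the libraries of this comparison alone (-1.33, adjusted p = 0.0122). Within MHCIIhi it ended with DESeq2 (-1.12, adjusted p = 0.0157), after thinning to the smallest library (-0.94, adjusted p = 0.0193) and without any 1 of the 6 libraries that were not Tspan8negMHCIIlo (adjusted p = 0.0103 to 0.096). Leukocytes express Maf too. The thymocyte and B cell marker sums were highest in Tspan8negMHCIIlo, and the macrophage and dendritic cell markers were at 382 and 445 CPM in Tspan8negMHCIIhi and 288 and 299 CPM in Tspan8posMHCIIhi. Their part in the difference was not tested.

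The second comparison asked how the genes differed between MHCIIhi and MHCIIlo cells, the levels used to separate mature from immature or late mTECs. In Tspan8neg cells, 5 of 9 genes were called, against 22.7% of all genes tested. Zfp750, Grhl3, Hopx and Ovol1 were higher in MHCIIhi (13.1% of all genes were higher) and Grhl2 was lower (9.67% lower). The fold changes were 2.65 for Zfp750 (1.40, SE 0.14, edgeR adjusted p = 2.31e-05), 3.04 for Grhl3 (1.60, SE 0.22, adjusted p = 0.000197), 2.38 for Hopx (1.25, SE 0.23, adjusted p = 0.00114) and 2.23 for Ovol1 (1.16, SE 0.19, adjusted p = 0.000714). Grhl2 was 2.28-fold lower (-1.19, SE 0.17, edgeR adjusted p = 0.000236). Without replicate 1 of Tspan8negMHCIIlo the count was 3, since Grhl2 (-0.99) and Hopx (0.96) then missed the fold limit. Hopx also missed the p threshold without replicate 2 of Tspan8negMHCIIhi (adjusted p = 0.0118). The marker sums of thymocytes and of B and plasma cells differed between these subsets in the same libraries, and their part in these differences was not tested.

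In Tspan8pos cells, edgeR called none of the 9 genes between MHCII levels, where 7.21% of all genes were called, 4.59% higher and 2.62% lower in MHCIIhi. At an unadjusted p under 0.05 there were 2, Zfp750 and Prdm1, and DESeq2 called 0. The share of 7.21% does not apply to these counts, which rest on another threshold and another test. Whether they differ from the share among all genes cannot be read from them. Zfp750 was 1.61-fold higher in MHCIIhi, under the fold limit. Prdm1 was lower in MHCIIhi by 0.61 on the log2 scale (95% interval -1.06 to -0.16, edgeR adjusted p = 0.0655). For Grhl1, Grhl2, Grhl3, Ovol1 and Hopx the intervals of the difference lay between -0.53 and 0.55, and those of Maf (-0.21 to 1.11) and Ovol2 were wider. The median log2 fold change of the 9 genes was 0.155 in Tspan8neg and -0.0061 in Tspan8pos cells, against -0.04 and 0.01 over all genes.

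**Figure D3:**
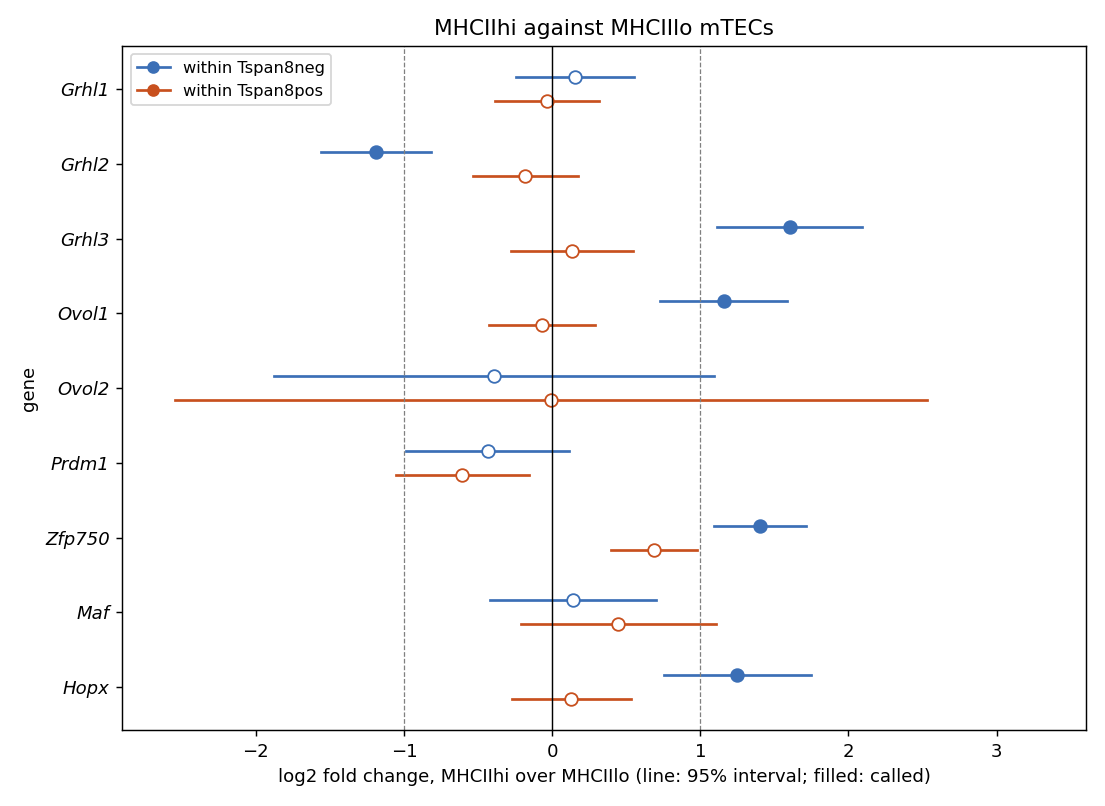
log2 fold change of each gene in MHCIIhi over MHCIIlo cells, with its 95% interval, in Tspan8neg (blue) and Tspan8pos cells (orange). Filled points were called and dashed lines mark a log2 fold change of 1. In Tspan8neg cells 4 genes lie to the right and Grhl2 to the left, and in Tspan8pos cells no point is filled.

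Whether the Tspan8 effect itself depended on the MHCII level was tested by the interaction, the log2 fold change within MHCIIlo minus that within MHCIIhi. Of the 9 genes, 1 was called, Grhl3 (4.6% of all genes were called, 2.36% in this direction and 2.24% in the other). Its difference was 1.47 (SE 0.29, 95% interval 0.83 to 2.11, edgeR adjusted p = 0.00873). The adjusted p of Grhl3 moved above 0.01 in 7 of 8 fits that left out 1 library (0.0129 to 0.0388), with a difference of 1.23 to 1.68. Ovol1 (1.23, SE 0.25, adjusted p = 0.0109), Hopx (1.12, SE 0.29, adjusted p = 0.0298), Zfp750 (0.71, SE 0.19, adjusted p = 0.0339) and Grhl2 (-1.01, SE 0.23, adjusted p = 0.0178) did not pass. With DESeq2, Ovol1 was called as well. For Grhl1 and Prdm1 the differences were 0.19 (-0.34 to 0.72) and 0.17 (-0.54 to 0.88).

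The 2 remaining pairs of subsets differ in both markers and share their libraries with the comparisons above. Between Tspan8posMHCIIlo and Tspan8negMHCIIhi, 7 of 9 genes were called, against 29.3% of all genes, with Grhl1, Grhl2, Grhl3, Ovol1, Prdm1 and Hopx higher (14.7% of all genes) and Maf lower in Tspan8posMHCIIlo (14.6%). Prdm1 had the largest of these fold changes, at 9.52-fold (3.25, SE 0.23, edgeR adjusted p = 8.58e-07). The Maf call (-1.51, SE 0.28, adjusted p = 0.00111) ended without replicate 2 of Tspan8negMHCIIhi (adjusted p = 0.0133) and without replicate 2 of Tspan8posMHCIIlo (0.0426). Between Tspan8posMHCIIhi and Tspan8negMHCIIlo, 6 of 9 genes were called against 24.7% of all genes, all higher in Tspan8posMHCIIhi (14.4% of all genes were higher and 10.3% lower). Ovol1 was 10.6-fold higher (3.41, SE 0.19, edgeR adjusted p = 2.92e-07), and Maf missed the threshold (-0.92, SE 0.27, adjusted p = 0.016).

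Levels can be compared between genes only per length. Divided by the length of the merged exons, Zfp750 was the highest of the 9 in Tspan8posMHCIIhi at 109 ± 6.56 CPM per kilobase (SD, n = 2). Hopx followed at 64.2 ± 4.53, Ovol1 at 58.6 ± 12.3, Grhl3 at 53.2 ± 11.5 and Grhl1 at 42.5 ± 4.05 CPM per kilobase. The spread between libraries did not separate Hopx, Ovol1 and Grhl3 from each other. Prdm1 was at 18.3 ± 5.71, Grhl2 at 7.75 ± 0.617, Maf at 1.66 ± 0.369 and Ovol2 at 0.715 ± 0.212 CPM per kilobase. In Tspan8negMHCIIlo, Zfp750 was again the highest at 15.3 ± 1.66 CPM per kilobase, while Hopx, Grhl2, Grhl1, Grhl3 and Ovol1 were between 5.52 and 7.71 CPM per kilobase. Within the Grainyhead-like family, Grhl2 was at a level per kilobase of merged exons close to those of Grhl1 and Grhl3 in Tspan8negMHCIIlo and was the lowest of the family in the other 3 subsets. With the length of the longest transcript instead, Grhl2 was at 12.1, Grhl1 at 10.1 and Grhl3 at 5.99 CPM per kilobase in Tspan8negMHCIIlo, and Grhl1 (67.8 CPM per kilobase) stood above Grhl3 (53.2) in Tspan8posMHCIIhi.

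**Figure D4:**
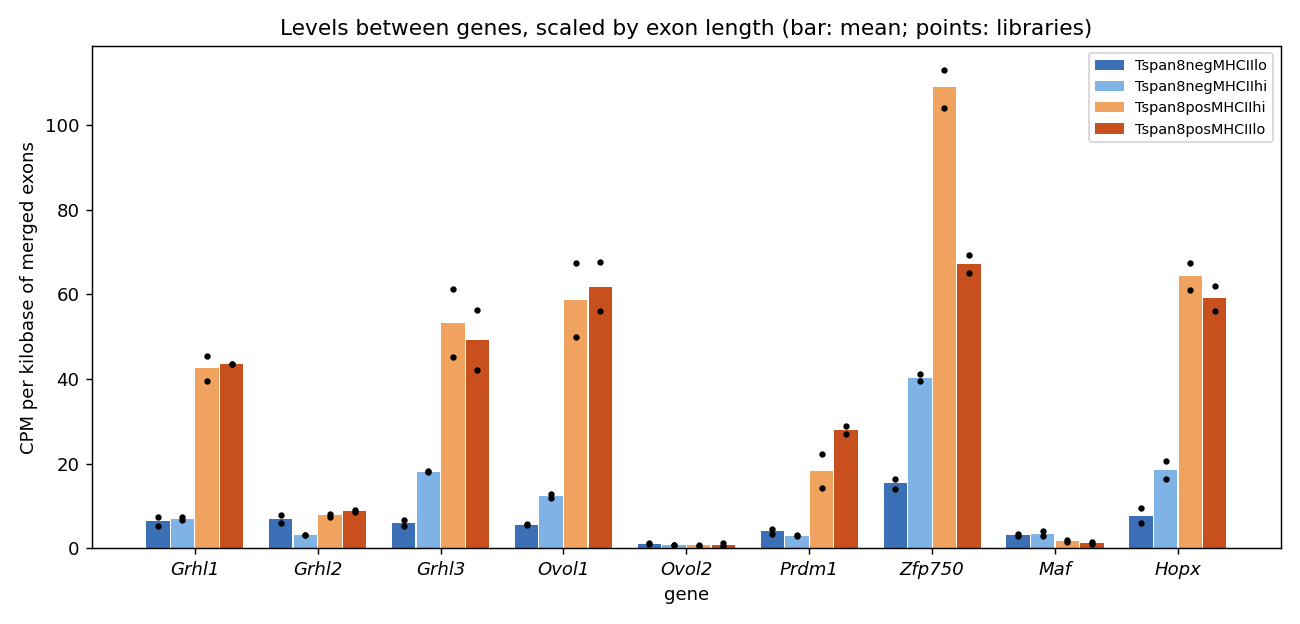
Level of each gene in CPM per kilobase of merged exons, as the mean of each subset (bars, from 0) with both libraries (points). Zfp750 in Tspan8posMHCIIhi is the highest bar at 109, and Ovol2 and Maf are near the axis in every subset.

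Likeness of profiles was measured as the root mean square difference of log2 CPM values, each centred on the gene's own mean, over the 8 libraries. It was taken for the 11040 tested genes whose mean reached 10 CPM. It is a description, and points from 1 library share its depth. Among the 9 genes, the closest pairs were Grhl3 and Hopx (0.302), Grhl1 and Prdm1 (0.32), Ovol1 and Hopx (0.325), Grhl3 and Ovol1 (0.344) and Grhl3 and Zfp750 (0.356). The farthest pair was Ovol1 and Maf (2.04). The 3 nearest other genes were Prss8 (0.13), Tuft1 (0.16) and Ppl (0.167) for Grhl1, where Ppl encodes periplakin of the cornified envelope. For Grhl2 they were Naa80 (0.098), Bmp7 (0.102) and Slc4a7 (0.11). For Grhl3 they were Susd2 (0.237), Il1rn (0.252), which encodes the interleukin-1 receptor antagonist, and Sulf2 (0.254). For Ovol1 they were Crybg2 (0.198), the adhesion gene Nectin4 (0.199) and Rnf144b (0.225). For Prdm1 they were AI661453 (0.217), Kctd11 (0.236) and Arhgef37 (0.247). For Zfp750 they were the cytokine receptor gene Il20rb (0.1), Irak2 (0.167) and Sh3tc1 (0.172). For Hopx, the nearest were Plat (0.144), which encodes tissue plasminogen activator, and Slc35f6 (0.149). For Maf they were the pseudogene Rps12-ps3 (0.173), Rps15a (0.187) and Ube2e3 (0.195), with the first uncertain because it shares sequence with its parent gene. For Ovol2, whose own profile rests on 5 to 13 counts a library, they were Fam104a (0.153), Rtl8a (0.197) and Pdhx (0.208). Over the 4 subset means, the nearest gene remained first for Zfp750 and Hopx and was another gene for the other 7.

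Other genes of the same program were taken from lists. Of 21 genes of the cornified envelope and late epidermis, 21 rose with Tspan8 within MHCIIlo (12.1% of all genes) and 19 within MHCIIhi (11%), with medians of 4.85 and 3.59 on the log2 scale against -0.03 over all genes at each level. Within MHCIIlo the smallest adjusted p-values belonged to Flg (6.07, SE 0.21), which encodes filaggrin, Cdsn (5.83, SE 0.22), which encodes corneodesmosin, Sbsn (4.99, SE 0.19) and Dmkn (5.15, SE 0.20). Within MHCIIhi they belonged to Krtdap (5.60, SE 0.22), Sbsn (5.09, SE 0.19), Dmkn (4.74, SE 0.20) and Flg (4.16, SE 0.18). Tgm3 (0.81, SE 0.17) and Lce3c (1.63, SE 0.75) were not called within MHCIIhi. In Tspan8neg cells, 5 of the 21 were higher in MHCIIhi (13.1% of all genes), among them Tgm3 (2.82, SE 0.22), Alox12b (2.47, SE 0.28), Casp14 (2.96, SE 0.39) and Sprr1a (1.62, SE 0.20). In Tspan8pos cells, Tgm3 was higher in MHCIIhi (1.15, SE 0.18) and Cdsn (-1.26, SE 0.16) and Flg2 (-1.49, SE 0.30) were lower, where 4.59% of all genes were higher and 2.62% lower.

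Of 13 other epithelial regulators, 10 rose with Tspan8 within MHCIIlo (12.1% of all genes) and 9 within MHCIIhi (11%), with medians of 1.48 and 1.95 against -0.03 over all genes at each level. None was called lower (9.34% and 7.45% of all genes), although Trp63 (-0.80, SE 0.16, edgeR adjusted p = 0.00261) and Notch1 (-0.83, SE 0.16, adjusted p = 0.00159) missed only the fold limit within MHCIIlo. Within MHCIIhi Trp63 moved the other way and again missed only the fold limit (0.81, SE 0.16, edgeR adjusted p = 0.00245). The interaction of Trp63 was called (-1.60, SE 0.23, edgeR adjusted p = 0.00174). Notch1 was at 0.24 within MHCIIhi (SE 0.16, edgeR adjusted p = 0.248). Within MHCIIlo the smallest adjusted p-values belonged to the Ets factors Elf3 (2.56, SE 0.17) and Ehf (1.86, SE 0.14), then Tfap2a (2.42, SE 0.23) and Klf4 (1.48, SE 0.15). Within MHCIIhi they belonged to Klf4 (2.00, SE 0.15), Elf3 (2.22, SE 0.17), Cebpa (2.12, SE 0.17) and Ehf (1.57, SE 0.14). In Tspan8neg cells Tfap2c was higher in MHCIIhi (1.54, SE 0.21), and Trp63 (-1.28, SE 0.16), the basal cell factor p63, Notch1 (-1.07, SE 0.16) and Klf5 (-1.35, SE 0.24) were lower. In Tspan8pos cells Ehf was lower in MHCIIhi (-1.09, SE 0.13).

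Targets known for Grainyhead-like factors were tested for 11 of 12 genes, since Dsg1c did not pass the filter. Within MHCIIlo, 8 rose (12.1% of all genes), with the smallest adjusted p-values for Rab25 (2.32, SE 0.17), Cldn3 (2.08, SE 0.17), Cldn4 (2.30, SE 0.20) and Esrp2 (1.19, SE 0.13), and Arhgef19 fell (-1.40, SE 0.24, 9.34% of all genes fell), with a median of 1.2 over the list. Tgm1 had the largest fold change of the 11 there (2.57, SE 0.29). Within MHCIIhi, 7 rose (11% of all genes), with the smallest adjusted p-values for Tgm1 (3.35, SE 0.30), which the cornified list holds as well, Esrp2 (1.303, SE 0.13), Cldn3 (1.70, SE 0.17) and Rab25 (1.45, SE 0.16), with a median of 1.3. Arhgef19 was among them and rose (1.46, SE 0.29, edgeR adjusted p = 0.00247), the opposite of its direction within MHCIIlo, and its interaction was called (-2.86, SE 0.38, adjusted p = 0.00117). Arhgef19 was at 30.6 and 37.9 CPM in Tspan8negMHCIIlo and between 2.7 and 13.7 CPM elsewhere. In Tspan8neg cells it was lower in MHCIIhi (-3.58, SE 0.27), while Dsg1b (2.33, SE 0.25) and Dsg1a (1.53, SE 0.18) were higher, and these near-identical desmoglein genes can exchange reads. In Tspan8pos cells none of the 11 was called between MHCII levels by edgeR, where 7.21% of all genes were called.

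**Figure D5:**
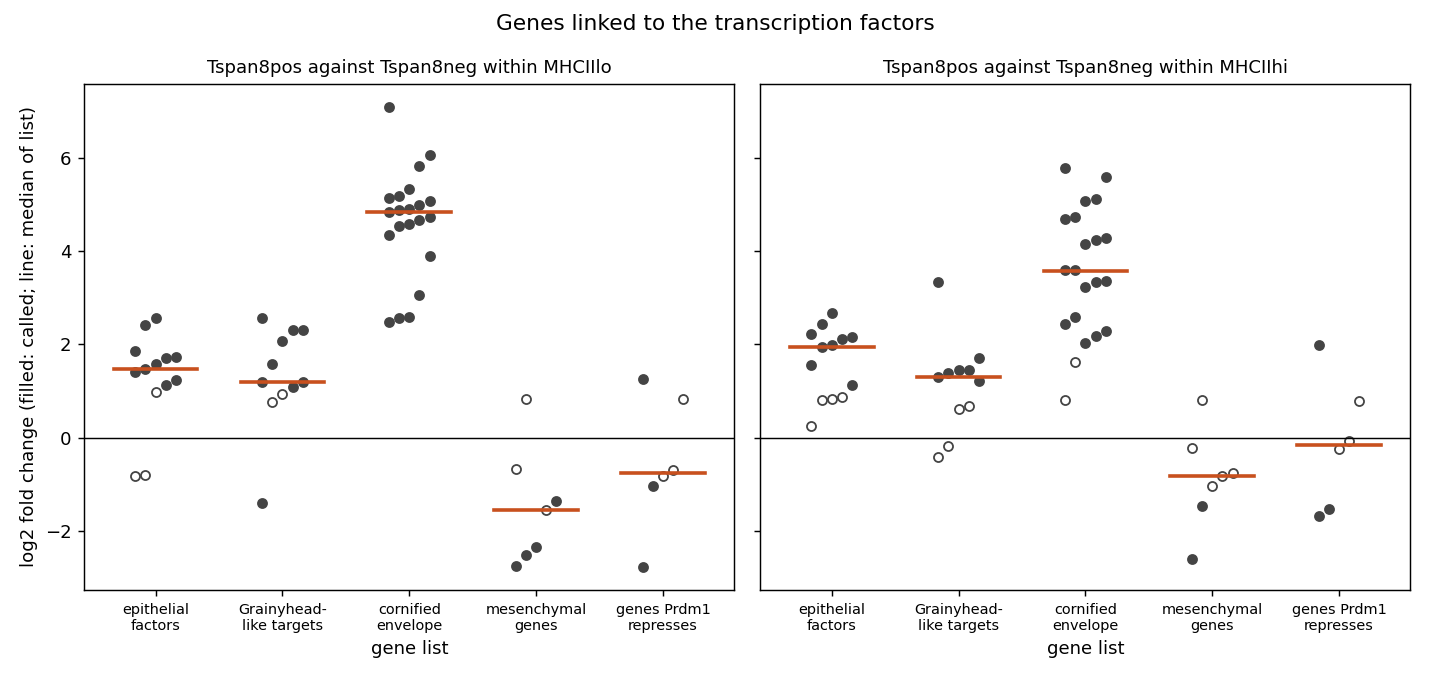
log2 fold change of Tspan8pos over Tspan8neg cells for the genes tested in each list, within MHCIIlo (left) and within MHCIIhi (right). Filled points were called and the orange line is the median of the list, 4.85 and 3.59 for the cornified envelope genes.

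Ovol factors are known to repress genes of the mesenchymal state. Of 9 such genes, 7 were tested, 4 fell with Tspan8 within MHCIIlo (9.34% of all genes) and 2 within MHCIIhi (7.45%), with medians of -1.55 and -0.82. None was called higher, although Cdh2 (0.83, SE 0.16, edgeR adjusted p = 0.00182) missed only the fold limit within MHCIIlo. Within MHCIIlo, Vim (-2.53, SE 0.21), Zeb1 (-2.35, SE 0.25), Fn1 (-1.35, SE 0.17) and Snai2 (-2.75, SE 0.52) fell, and within MHCIIhi, Vim (-2.60, SE 0.21) and Fn1 (-1.46, SE 0.15). Zeb1 was at 38 and 44.4 CPM in Tspan8negMHCIIlo and between 4.98 and 10.9 CPM elsewhere. In Tspan8neg cells Zeb1 (-2.04, SE 0.24), Snai2 (-2.35, SE 0.47) and Zeb2 (-1.85, SE 0.46) were lower in MHCIIhi and Fn1 was higher (1.64, SE 0.16). In Tspan8pos cells Cdh2 was lower (-2.02, SE 0.17) and Fn1 higher in MHCIIhi (1.54, SE 0.17). Leukocytes express Vim and Zeb2 as well, and the part of the thymocyte and B cell markers of Tspan8negMHCIIlo in these differences was not tested. The fibroblast markers summed to 126 and 228 CPM in Tspan8negMHCIIlo, 188 and 181 CPM in Tspan8negMHCIIhi, and 71.9 to 105 CPM in Tspan8pos libraries.

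Genes that Prdm1 represses in lymphocytes moved in both directions. Of 6 genes, 1 rose and 2 fell with Tspan8 within each MHCII level, with medians of -0.76 and -0.16. Of all genes, 12.1% rose and 9.34% fell within MHCIIlo, and 11% rose and 7.45% fell within MHCIIhi. Ciita, the transactivator of MHC class II genes, was at 129 and 131 CPM in Tspan8negMHCIIlo, 347 and 359 CPM in Tspan8negMHCIIhi, 100 and 119 CPM in Tspan8posMHCIIhi and 19.2 and 18.6 CPM in Tspan8posMHCIIlo. It fell with Tspan8 within MHCIIlo (-2.79, SE 0.16, edgeR adjusted p = 3.32e-07) and within MHCIIhi (-1.69, SE 0.13, adjusted p = 3.6e-06). Ciita acts on the genes whose product the sort used, so its difference between MHCII gates (2.54 in Tspan8pos and 1.44 in Tspan8neg cells) is not independent of the gate. H2-Ab1 was also lower in Tspan8pos cells within each gate, and its part in the decreases of Ciita there was not tested. Id3 fell within MHCIIlo (-1.04, SE 0.21) and Pax5 within MHCIIhi (-1.54, SE 0.36), while Spib rose within MHCIIlo (1.26, SE 0.16) and Bcl6 within MHCIIhi (1.99, SE 0.18). In Tspan8neg cells Ciita was higher and Bcl6 (-1.55, SE 0.18) and Id3 (-1.61, SE 0.21) were lower in MHCIIhi, and in Tspan8pos cells Ciita alone of the 6 was called.

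The count of a gene can include reads of a gene on the other strand, because the study's methods and the labels describe different library kits and strand use was not settled. Grhl1, Grhl3 and Prdm1 have no annotated gene on the other strand. The exons of Hopx overlap those of Hopxos over 27.2% of their bases, and Hopxos had at most 1 count in any library. Ovol1 shares 19.8% with Gm31166, which had at most 11 counts, and 2.18% with AC126029.1. Grhl2 shares 1.96% with Gm16136, which had 8 to 199 counts, against 127 to 565 counts of Grhl2. Zfp750 lies within Tbcd (138 to 859 counts) with no shared exon base, and Maf and Ovol2 share 5.34% and 17% of their exon bases with Gm15655 and 1700108N11Rik. AC126029.1, Gm15655 and 1700108N11Rik were not in the count table, so the extent for Maf and Ovol2 is not known. No exon base is shared for Zfp750, and the partner of Hopx had at most 1 count. The levels of the 6 genes are uncertain to the extent given for each.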

How the data were processed

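RNA-seq was available for 8 libraries of sorted mouse mTECs, 2 a subset, grouped by the sample titles. Estimated counts of each gene and library were deposited by the authors in 1 table, made with Salmon 1.8.0 on the Gencode vM10 mouse transcriptome (mm10), as whole numbers without normalization, so that rounding changed nothing. The authors' own tests used DESeq2 1.30.0 and were not used here. Symbols, positions and exon lengths came from the later GENCODE vM21 annotation of GRCm38, in which 25336 identifiers matched and 130 did not. Promoters came from RefSeq (GRCm38.p6).

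The analysis used R 4.3.3, edgeR 4.0.16 and limma 3.58.1, with TMM normalization, filterByExpr and the quasi-likelihood test, with all 8 libraries fitted together by subset (common dispersion 0.024, a biological coefficient of variation of 15.5%). P-values are two-sided, with Benjamini-Hochberg adjustment across 17006 tested genes. Calls needed an adjusted p under 0.01 and a log2 fold change of at least 1 in size. SE was derived from the F statistic as the absolute log2 fold change over sqrt(F), and intervals are 95%. CPM uses TMM library sizes. Fold changes of low counts depend on the prior count. With 2 libraries against 2, exact permutation p-values stay above 0.05 and were left out. The scripts were tested on simulated data.

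The members and lists were chosen with earlier results of these data known. Named genes are the 9 members, the 3 nearest profiles of each, the sort genes, and up to 4 called genes per list, direction and comparison with the smallest adjusted p. Some genes that this rule names are not reported here. Genes of a list that were named outside this rule (Tgm3, Lce3c, Trp63, Notch1, Cdh2, Arhgef19, Zeb1, Zeb2, Ciita and Dsg1c) were named after their values were seen. Alternatives were DESeq2 1.42.0, other normalization, filters and thresholds, a replicate block, the libraries of 1 comparison alone, thinning to the smallest library and leaving out each library.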

Additional observations from a re-analysis of the deposited data

Results flagged for a closer look

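Grhl3 stood out because its Tspan8 effect differed between MHCII levels in the interaction test of edgeR. The increase with Tspan8 was 3.02 on the log2 scale within MHCIIlo and 1.55 within MHCIIhi, a difference of 1.47 (SE 0.29, adjusted p = 0.00873). The Grhl3 level in Tspan8negMHCIIlo was 18.5 and 14.9 CPM against 51 and 50.2 CPM in Tspan8negMHCIIhi, while the Tspan8pos subsets overlapped. Over all genes, the libraries of Tspan8negMHCIIlo, on which this difference partly rests, differed most from each other. The chi-square per gene between replicates was 9.84 there, against 3.29 to 5.25 in the other subsets. The SD of Grhl3 was 32 CPM at a mean of 148 CPM in Tspan8posMHCIIhi and 27.8 at 137 CPM in Tspan8posMHCIIlo. It was 2.61 at 16.7 CPM in Tspan8negMHCIIlo and 0.499 at 50.6 CPM in Tspan8negMHCIIhi. Since these means differ, the SDs in CPM do not compare the spread on the log scale. Groups of 2 libraries are too small for Dixon's test of an outlying library.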

How the results depend on the processing

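Of 1043 alternative values for single genes, 982 kept their direction and their side of the threshold, 25 lost a call and 13 gained one. The other 23 changed sign, all among differences that were not called. The values at an adjusted p under 0.05 and with no fold limit reuse the main fit. They could not change sign or lose a call. The number of genes called with Tspan8 was 6 to 7 of 9 within MHCIIlo and 7 to 8 within MHCIIhi when 1 library was left out. Between MHCII levels of Tspan8neg cells it was 3 after thinning to the smallest library, where Grhl2 and Hopx missed the limits, and 3 to 5 with 1 library left out. In Tspan8pos cells it was 1 with no limit on the fold change, which was Zfp750, and 0 in each fit with 1 library left out. For the interaction the count was 2 with DESeq2, with DESeq2 size factors, and with a minimum of 10 counts in 4 libraries, 3 without a filter on low counts, 4 at an adjusted p under 0.05, and 0 to 2 with 1 library left out. The shares of all genes given above hold for the main setting alone, such as 4.6% for the interaction. Counts under other settings cannot be set against them. Why the counts changed was not tested.

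Same-numbered libraries deviated together weakly, with a correlation above 0 in each of the 6 pairs of subsets (0.0121 to 0.124). The thymocyte and the B and plasma cell marker sums were higher in replicate 2 than in replicate 1 of every subset. Those of macrophages and dendritic cells were so in all but Tspan8posMHCIIlo. The main fit did not pair the libraries by number. With a replicate block the interaction count was 2, adding Ovol1 (1.24), and the block changed no other call of the 9 genes.

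Signs changed with 1 library left out as follows, as the range of the log2 difference. For Tspan8pos against Tspan8neg, Ovol2 was between -1.19 and 0.32 within MHCIIlo and between -0.46 and 0.16 within MHCIIhi. For MHCIIhi against MHCIIlo in Tspan8neg cells, Grhl1 was between -0.089 and 0.41 and Maf between -0.0415 and 0.44. In Tspan8pos cells, Grhl1 was between -0.11 and 0.0612, Grhl3 between -0.0853 and 0.36, Ovol1 between -0.28 and 0.13 and Ovol2 between -0.85 and 0.67. In the interaction, Grhl1 was between -0.0571 and 0.42, Ovol2 between -1.07 and 0.45, Prdm1 between -0.12 and 0.50 and Maf between -0.54 and 0.0177. Between Tspan8posMHCIIlo and Tspan8negMHCIIhi, Ovol2 was between -0.79 and 0.72, and between Tspan8posMHCIIhi and Tspan8negMHCIIlo, Grhl2 was between -0.024 and 0.39. In Tspan8pos cells, the MHCII difference of Grhl2 was 8e-04 after thinning and that of Ovol2 was 0.0132 with DESeq2 size factors.

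With 2 libraries a subset and 5 to 13 counts of Ovol2 in each, smaller differences of that gene were not detectable. A left-out library leaves 1 in its subset, which was taken to vary like the others.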
